A study of Mus musculus with 15 samples.

Results

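The genes examined here were 10 components of the NF-κB pathway in mouse mammary tissue: the 5 subunits Nfkb1, Nfkb2, Rel, Rela and Relb, the inhibitors and feedback genes Nfkbia, Tnfaip3 and Nfkbiz, and the kinase genes Ikbkb and Chuk. They were chosen by gene name, as 10 of the 52526 genes listed for each mouse, and all 10 were found. Female Crl:NU-Foxn1 nu mice, called nude mice because they are hairless and also lack a thymus, received either BDE-47 (n = 7, with 0.03 mg/kg/d as the dose aimed for) or the vehicle alone, PEG300 with DMSO (n = 8), from subcutaneous osmotic pumps for 16 weeks, starting after 8 weeks of age. BDE-47 is a congener of the polybrominated diphenyl ethers, which are used as flame retardants. RNA was taken from the left mammary fat pad, a mixture of fat, ducts, vessels and immune cells. Some mice of the study carried a xenograft in the region, which the labels do not give for each mouse.

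NF-κB is a family of transcription factors that act as pairs of subunits. In resting cells the pairs are held in the cytoplasm by inhibitors of the IκB family, and signals from cytokine and microbial receptors activate the IκB kinase complex, which marks the inhibitors for destruction and frees the subunits to enter the nucleus. In the alternative arm, Chuk acts on the Nfkb2 precursor and releases pairs that contain Relb. Among the genes then switched on are inhibitors of the pathway itself, such as Nfkbia and Tnfaip3, so that the transcript level of these genes is often read as a record of recent activity. In the mammary gland the pathway acts downstream of the receptor Tnfrsf11a during growth of the epithelium. In lymphoid tissue it is needed for B cells and for the stroma that organises the lymph node.

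The promoters of 3 of these genes are shown because the letters that NF-κB binds can be read in them directly. RefSeq (GRCm38.p6) promoter entries matched 6 of the 10 genes. Nfkb1, Relb, Nfkbiz and Ikbkb are named only. The 250 bases before each start were searched on both strands for GGGNNTTTCC, a spelling chosen with known NF-κB sites in mind, and for the looser GGGNNNNNCC, which every match of the first also fits. Capitals mark the match to the first spelling, which lies on the opposite strand in all 3 and therefore appears as its reverse complement. Each window is printed in the direction of its gene, and all 3 genes lie on the minus strand. They are chr12:55492648-55492897 for Nfkbia, chr10:19015411-19015660 for the outer start of Tnfaip3 and chr11:23770970-23771219 for Rel.
Nfkbia: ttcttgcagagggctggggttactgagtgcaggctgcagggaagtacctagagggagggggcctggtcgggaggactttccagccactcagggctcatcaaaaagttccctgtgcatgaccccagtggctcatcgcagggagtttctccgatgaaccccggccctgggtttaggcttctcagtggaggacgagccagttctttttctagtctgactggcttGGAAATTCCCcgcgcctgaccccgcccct
Tnfaip3: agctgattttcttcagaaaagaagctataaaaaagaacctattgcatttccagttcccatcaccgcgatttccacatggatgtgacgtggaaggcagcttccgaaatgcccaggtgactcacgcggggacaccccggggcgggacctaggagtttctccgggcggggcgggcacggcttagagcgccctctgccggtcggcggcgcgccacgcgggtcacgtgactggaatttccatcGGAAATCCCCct
Rel: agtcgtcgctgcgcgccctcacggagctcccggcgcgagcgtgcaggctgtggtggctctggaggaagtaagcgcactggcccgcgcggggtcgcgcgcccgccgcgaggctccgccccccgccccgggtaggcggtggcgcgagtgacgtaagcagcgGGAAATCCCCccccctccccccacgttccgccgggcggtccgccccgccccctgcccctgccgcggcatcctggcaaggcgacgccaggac
The match began 29 bases before the start of Nfkbia, 12 bases before that of Tnfaip3 and 91 bases before that of Rel. The first of the Nfkb2 windows held GGGGCTTTCC beginning 11 bases before its start. No match to this spelling lay in the windows of Rela and Chuk. The first spelling was in 5 of the 9 windows of the 6 genes and in 1.41% of the 32817 promoter windows of the mouse. By gene, 4 of the 6 had such a window, against 1.66% of all genes. The looser spelling was in all 9 windows and in 45.8% of all windows. A match describes the letters of a window and was not measured as a binding site.

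The values of a mouse are log2(CPM), where CPM is the read count of a gene after each mouse is brought to one common total. Genes under 1 CPM are listed at 0. Each transcript is read near its 3′ end, so levels of different genes can be set side by side without a correction for length. The mice had 10.1 to 19.6 M mapped reads as recovered from the spacing of low values, so that 1 CPM stands for 10.1 to 19.6 reads, and depth was alike in both groups (exact permutation test, two-sided, p = 0.990). Of 15 genes that every cell uses, between 10 and 14 were above the floor in a mouse, and so a gene listed at 0 was not necessarily absent. Of the 150 values of the 10 genes, 38 (25.3%) were listed at 0. The markers of the fat pad were present, with 6 to 8 of 8 adipocyte genes and 7 or 8 of 8 luminal epithelial genes above the floor in each mouse. Their summed levels differed widely between mice, as given below.

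Vehicle replicates 6 and 8 stood apart from the other mice. All 10 B cell genes were above the floor in both, with a summed level of 853 and 879 CPM, against at most 21.2 CPM in any other mouse. All 8 T cell genes were also above the floor in both, with summed levels of 651 and 359 CPM against at most 13.4 CPM elsewhere, in a strain that lacks a thymus. Cd79a, part of the B cell receptor, was listed at 0 in the other 13 mice. Macrophage genes summed to 1563 and 2232 CPM in these mice, against at most 989 CPM in the others, and dendritic cell genes to 119 and 116 CPM, against at most 41.7 CPM. These sums rest largely on single genes, Lyz2 (9.87 and 10.36 log2 units) and Ccr7 (6.51 and 5.92). The macrophage genes Adgre1 and Cd163 and the dendritic cell genes Flt3, Xcr1 and Clec9a were listed at 0 in both mice. The 8 adipocyte genes summed to 325 and 872 CPM in these mice, against 2444 to 20442 CPM in the rest. BDE-47 replicate 6 was set apart by 6 skeletal muscle genes, with 78541 CPM against at most 149 CPM in the other mice. Luminal epithelial genes summed to 43.3 and 190 CPM in vehicle replicates 6 and 8 and to 167 CPM in BDE-47 replicate 6. In the rest they summed to 774 to 3836 CPM. The differences of the 8 genes of the 10 that were tested are therefore also given below without vehicle replicates 6 and 8. In whole tissue, fewer cells of a type and less RNA per cell cannot be told apart.

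To investigate whether prolonged BDE-47 exposure was accompanied by a different level of the pathway's own components, the 10 genes were compared between BDE-47 and vehicle mice. Of the genes that could be tested, Relb had the largest difference, at a mean 1.18 log2 units above vehicle, and no gene passed the test. Rel and Tnfaip3 were above the floor in 5 and 3 mice and were not tested, since a gene needed at least 1 CPM in at least 7 mice. Of the 8 genes tested with limma, 0 passed an adjusted p of 0.05 (Benjamini-Hochberg, lowest 0.982), as did 0.0% of the 9506 genes tested. At an unadjusted limma p under 0.05 the 8 genes also gave 0 calls, against 1.94% of all genes higher and 2.71% lower with BDE-47. The exact permutation test, two-sided, called 0 of the 8 at an unadjusted p under 0.05, against 4.42% of all genes. Fisher's exact test, which compares how many mice lay above the floor, called 0, against 0.978%. It could not have called Rela or Nfkbia, above the floor in all 15 mice, whatever the split between groups. Nor could it have called Nfkb2, Ikbkb or Chuk, above it in 14 mice, or Relb, above it in 12. The median difference over the 8 genes was -0.07, beside -0.02 over all genes tested, and 4 differences were above and 4 below 0.

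**Figure D1:**
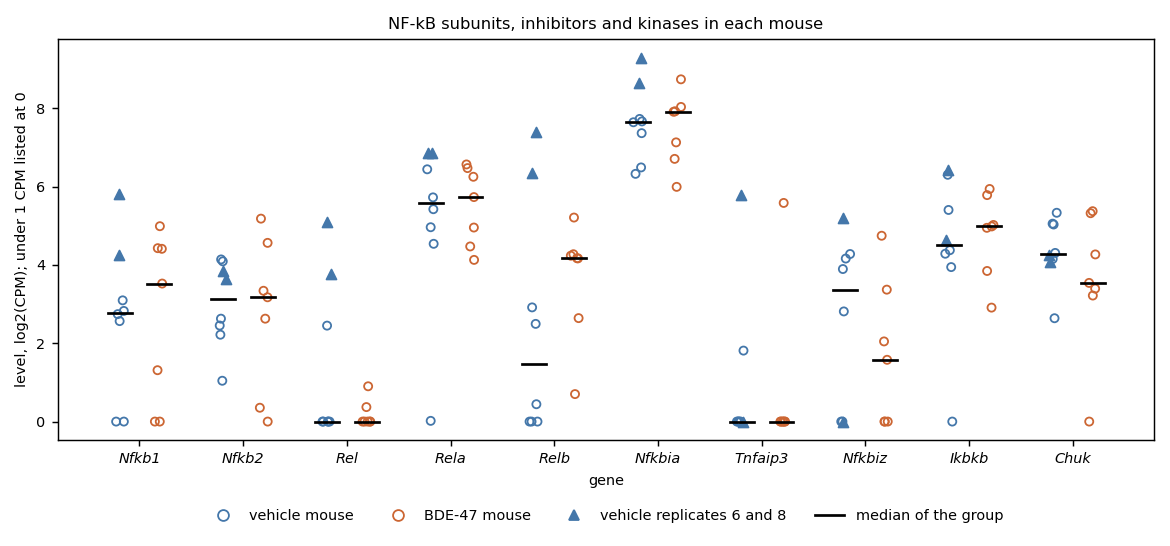
Level of each gene in each mouse, in log2(CPM), with genes under 1 CPM at 0. Circles are mice, filled triangles are vehicle replicates 6 and 8, and black lines are group medians. The groups overlap in every gene, the triangles are the highest points of Rel, Rela and Relb, and Nfkbia is the highest gene of every mouse.

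Rela encodes the subunit that carries the main activating domain of the classical pathway (chr19:5637442-5648134, in GRCm38.p6 as for the genes that follow). Its level in vehicle mice was 0.02 at the lowest, 5.57 at the median and 6.85 at the highest, and in BDE-47 mice 4.13, 5.73 and 6.56. It was above the floor in all 15 mice, and the only value near the floor was that of vehicle replicate 2. The BDE-47 mean was higher by 0.41 (SE 0.73, limma adjusted p = 0.994), a difference that turned to -0.32 without vehicle replicate 2 and grew to 0.99 without vehicle replicates 6 and 8. Nfkb1 encodes the precursor of the usual partner of Rela (chr3:135584655-135691969). It ranged from 0 to 5.80 in vehicle mice (median 2.78) and from 0 to 4.99 in BDE-47 mice (median 3.52), with 2 mice of each group listed at 0. The difference was 0.01 over all mice (SE 1.12, limma adjusted p = 1.00) and 0.79 without vehicle replicates 6 and 8 (SE 1.17, limma adjusted p = 0.994). The 95% interval over all mice, from -2.25 to 2.26, leaves room for a change of more than 2-fold either way. Nfkb1 overlaps a long non-coding RNA in RefSeq, and whether the counting used strand is not given in the sources used here.

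Rel encodes a subunit known best from lymphocytes (chr11:23736847-23770969). The number of mice listed at 0 was 5 of 8 with vehicle and 5 of 7 with BDE-47. The highest values, 5.10 and 3.78, belonged to vehicle replicates 8 and 6, followed by 2.45 in vehicle replicate 1, and the BDE-47 mice reached at most 0.90. The difference in mean, not tested, was -1.23. Outside vehicle replicates 6 and 8, the gene was thus above the floor in 3 of 13 mice.

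Relb, the subunit of the alternative pathway (chr7:19606217-19629438), was the only one of the 8 tested genes past 2-fold. In vehicle mice it was 0 at the lowest, 1.47 at the median and 7.39 at the highest, and in BDE-47 mice 0.70, 4.17 and 5.21. All 7 BDE-47 mice and 5 of 8 vehicle mice were above the floor (Fisher's exact test, two-sided, p = 0.200). The vehicle mice held both the highest and the lowest values, because replicates 8 and 6 were at 7.39 and 6.34 and the other 6 vehicle mice were between 0 and 2.91. The difference over all mice was 1.18 (SE 1.15, 95% interval -1.15 to 3.51, limma unadjusted p = 0.313, adjusted p = 0.982). Without vehicle replicates 6 and 8 the difference was 2.65 (SE 1.15), with 5 of 7 BDE-47 mice above all 6 vehicle mice. The unadjusted p was then 0.0240 with limma and 0.0134 with the exact permutation test, and the adjusted p was 0.991 and 1.00. The same threshold was passed, among genes higher with BDE-47, by 1.65% of all genes with limma and by 1.74% with the exact test. The difference also depends on the scale. The log2 ratio of mean CPM was -0.95, and the mean over the mice above the floor alone differed by -0.29.

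Nfkb2, which encodes the precursor that pairs with Relb (chr19:46300994-46312400), had no such split. Its level ran from 1.04 to 4.14 in vehicle mice (median 3.13) and from 0 to 5.18 in BDE-47 mice (median 3.17), and 14 of 15 mice were above the floor. The difference was -0.26 (SE 1.03, limma adjusted p = 0.994) and -0.01 without vehicle replicates 6 and 8. The 3′ end of Nfkb2 overlaps that of Psd in RefSeq. Psd was above the floor in 1 mouse, at 0.64.

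Nfkbia, which encodes the inhibitor IκBα (chr12:55489409-55492647), was the highest of the 10 genes in each of the 15 mice, with at least 1200 reads. Its level was 6.32 at the lowest, 7.65 at the median and 9.29 at the highest in vehicle mice, and 5.99, 7.91 and 8.74 in BDE-47 mice. The groups overlapped over most of their range. The difference was -0.15 (SE 0.44, 95% interval -1.03 to 0.73, limma adjusted p = 0.994), so that the interval reached just past a 2-fold decrease and not a 2-fold increase. Without vehicle replicates 6 and 8, it was 0.29 (SE 0.41, limma adjusted p = 0.994).

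Tnfaip3, which encodes the ubiquitin-editing protein A20 (chr10:19000910-19015410), was listed at 0 in 6 of 8 vehicle and 6 of 7 BDE-47 mice. The values above the floor were 5.79 in vehicle replicate 6, 5.58 in BDE-47 replicate 2 and 1.81 in vehicle replicate 1. Tnfaip3 and Nfkbia share the GGGNNTTTCC spelling near their starts, while one was detected in 3 mice and the other in 15. Nfkbiz encodes an inducible nuclear IκB protein (chr16:55811375-55838954). It ranged from 0 to 5.19 in vehicle mice (median 3.35) and from 0 to 4.74 in BDE-47 mice (median 1.58), with 3 mice of each group listed at 0. The difference was -0.87 (SE 1.08, limma adjusted p = 0.993) and -0.85 without vehicle replicates 6 and 8.

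Ikbkb and Chuk encode the catalytic subunits of the IκB kinase complex, IKKβ and IKKα. Ikbkb (chr8:22659205-22706589) was 0 at the lowest, 4.50 at the median and 6.41 at the highest in vehicle mice, and 2.91, 4.98 and 5.94 in BDE-47 mice. Vehicle replicate 2 was the only mouse listed at 0. The difference was 0.36 (SE 0.78, limma adjusted p = 0.994), -0.28 without vehicle replicate 2 and 0.72 without vehicle replicates 6 and 8. Chuk (chr19:44073334-44107505) was 2.64, 4.28 and 5.33 in vehicle mice, and 0, 3.54 and 5.37 in BDE-47 mice. Here BDE-47 replicate 7 was the only mouse listed at 0. The difference was -0.77 (SE 0.83, limma adjusted p = 0.982), -0.17 without BDE-47 replicate 7 and -0.83 without vehicle replicates 6 and 8. Unlike Relb, Chuk was in the middle of the range in vehicle replicates 6 and 8, at 4.25 and 4.08.

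**Figure D2:**
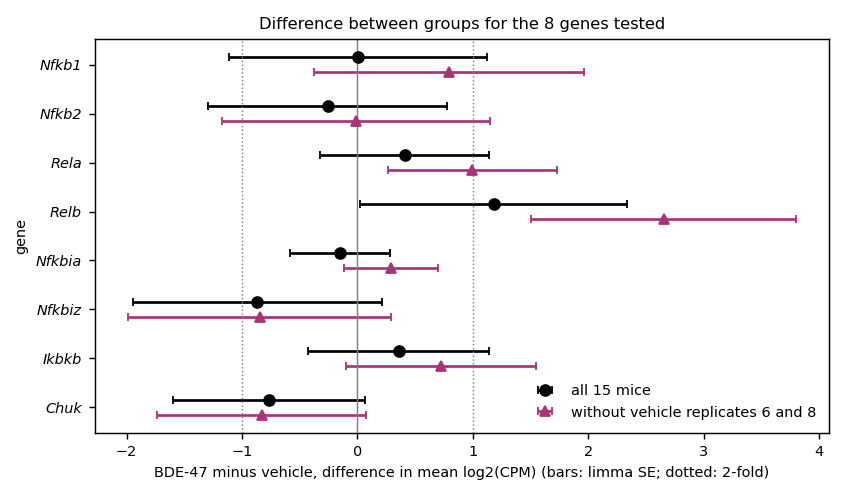
Difference between groups in mean log2(CPM), BDE-47 minus vehicle, for the 8 genes tested, with bars of 1 limma standard error and dotted lines at 2-fold. Black circles are all 15 mice and triangles are the fit without vehicle replicates 6 and 8. Relb moves from 1.18 to 2.65, while Nfkbiz and Chuk stay between -0.77 and -0.87.

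By the criterion of a 2-fold difference in mean, with no test, 1 of the 8 genes (Relb) was higher and 0 were lower with BDE-47, against 13.0% higher and 13.2% lower among all genes tested. The count of higher genes was 0 without vehicle replicate 2, 4, 5 or 7 or without BDE-47 replicate 4. The count of lower genes was 1 without vehicle replicate 3, 4, 7 or 8 or without BDE-47 replicate 2, 3, 4 or 6, and the gene was either Nfkbiz or Chuk. Without vehicle replicates 6 and 8 the counts were 1 and 0, and 5 of the 8 differences were above 0. Leaving these mice out raises the difference of any gene that was higher in them than in the other vehicle mice, such as Rela and Relb.

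Several subunits were high in the mice set apart by their B and T cell genes. Vehicle replicates 6 and 8 were both above all other mice in Rela and Relb, 2 of the 8 tested genes, against 5.54% of all genes tested. They were also above all other mice in Rel, which was not tested. The mean of these mice was above that of the 13 others by 4.46 for Relb, 4.15 for Rel, 2.72 for Nfkb1, 1.80 for Rela and 1.61 for Nfkbia. The gap was 2.33 for Tnfaip3, 1.08 for Ikbkb, 0.98 for Nfkb2, 0.53 for Nfkbiz and 0.20 for Chuk. The 2 mice did not always go together. Tnfaip3 was at 5.79 and Nfkbiz at 5.19 in vehicle replicate 6, and both were listed at 0 in vehicle replicate 8. These are descriptions of 2 mice, which were picked for their B cell genes, and have no test. The part of lymphoid and myeloid cells in the differences between BDE-47 and vehicle mice was not tested. The B cell genes summed to 0 to 879 CPM in vehicle mice and to 0 to 21.2 CPM in BDE-47 mice.

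**Figure D3:**
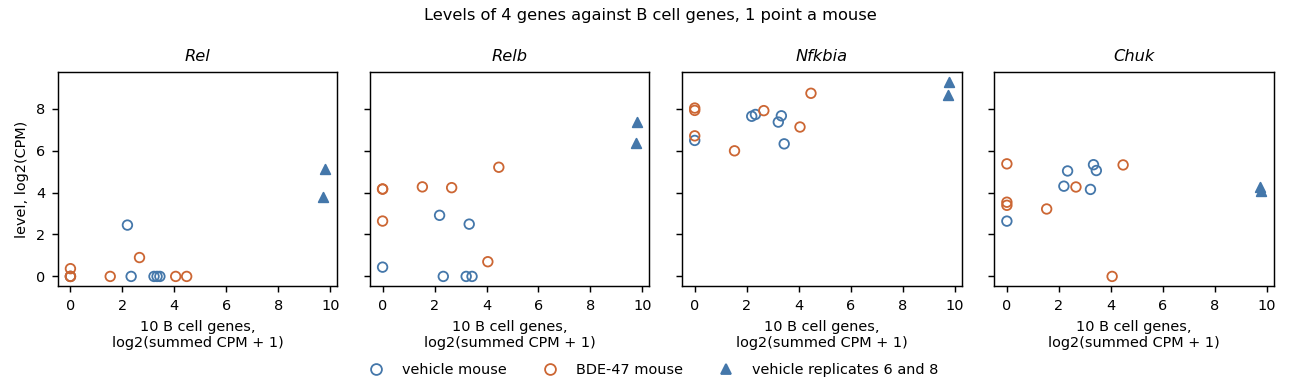
Level of Rel, Relb, Nfkbia and Chuk in log2(CPM) against the summed level of 10 B cell genes, as log2(summed CPM + 1), with 1 point for each mouse. Vehicle replicates 6 and 8 (triangles) lie far to the right of the other mice, high in Rel, Relb and Nfkbia and in the middle of the range in Chuk.

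Across the mice, each gene above the floor in at least 12 mice was compared with the 5499 genes that met the same limit, and the genes with the highest Pearson r over 15 mice are named as a description. Chuk was most like Nfe2l2, the master regulator of the antioxidant response (r = 0.93), and Actr1a (r = 0.92). Ikbkb was closest to Rcc2 and Igf2r (r = 0.91 and 0.90), and Rela to Cct4 and Sh3bp5 (both r = 0.91). Nfkbia was closest to AU020206 and Git2 (r = 0.91 and 0.88), and Relb to Ap4s1 and Nup210 (both r = 0.80). For Nfkb2 the closest were Clasrp and 2310011J03Rik (r = 0.86 and 0.79). The rank correlation (Spearman rho) of these pairs was mostly lower, from 0.69 for Nfkb2 with 2310011J03Rik to 0.87 for Nfkbia with AU020206. It was 0.825 for Chuk with Nfe2l2, 0.71 for Chuk with Actr1a, 0.76 for Ikbkb with Rcc2 and 0.71 for Ikbkb with Igf2r. For Rela it was 0.83 with Cct4 and 0.725 with Sh3bp5. The points share libraries, depth and the floor. How far single mice near the floor set these values was not tested. Without vehicle replicates 6 and 8 the r of Relb with Nup210 was 0.69 and with Ap4s1 0.87.

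Other genes of the pathway were examined in 5 lists of receptors, ligands, adaptors, inhibitors and targets, 149 different genes in all, of which 84 were tested. Some genes stand both among the targets and in another list, and they count in each. None had an adjusted limma p under 0.05. At an unadjusted p under 0.05, 2 were higher and 3 were lower with BDE-47, beside 1.94% and 2.71% of all genes tested. Past 2-fold, 15 were higher and 10 lower, beside 13.0% and 13.2%. The median difference over the 84 genes was 0.03. Without vehicle replicates 6 and 8 it was 0.24, beside -0.07 over all genes tested, and 54 of 84 differences were above 0, against 4430 of 9506 among all genes tested. Leaving these mice out raises the difference of any gene whose mean level was higher in them than in the other vehicle mice. The count is therefore not a measure of BDE-47 alone.

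Of the 27 receptors, 12 were tested, and 1 was higher and 1 lower at an unadjusted p under 0.05. Tnfrsf11a, the receptor RANK that drives growth of the mammary epithelium, was above the floor in all 8 vehicle mice, at 2.02 to 4.62 (median 4.13). In BDE-47 mice it was listed at 0 in 4 of 7 and reached 4.03. Its difference was -2.37 (SE 1.02, limma unadjusted p = 0.0257, adjusted p = 0.982). Tnfrsf12a, the receptor of the cytokine TWEAK, showed the opposite pattern. It exceeded the floor in 7 of 7 mice with BDE-47, at 1.99 to 3.37, and in 3 of 8 with vehicle, where it reached 3.01. The difference was 1.77 (SE 0.81, limma unadjusted p = 0.0352, adjusted p = 0.982). Of the 15 ligands, 4 were tested and none passed the unadjusted threshold. The extremes were Hmgb1, a nuclear protein that alerts immune cells when released, at 1.22 (SE 1.03), and the alarm cytokine Il33, at -0.65 (SE 0.80).

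Of 45 adaptors, kinases and ubiquitin regulators, 33 were tested, 0 were higher and 1 was lower at an unadjusted p under 0.05. This gene was Tab2, which links ubiquitin chains to the kinase upstream of the IκB kinases. Its level was 3.47 to 6.69 in vehicle mice (median 6.16) and 2.84 to 6.15 in BDE-47 mice (median 4.51), above the floor in all 15 mice. Apart from vehicle replicate 6, at 3.47, the vehicle mice were at 5.83 or more, and only 1 BDE-47 mouse was. The difference was -1.57 (SE 0.63, limma unadjusted p = 0.0166, adjusted p = 0.982). Among 15 other inhibitors and kinase partners, 10 were tested, with 1 higher. Azi2, an adaptor of the IκB kinase relatives, exceeded the floor in 6 of 7 mice with BDE-47 (median 4.12) and in 4 of 8 with vehicle (median 0.64). Its difference was 2.17 (SE 1.04, limma unadjusted p = 0.0426, adjusted p = 0.982).

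Among the 54 inflammatory and survival targets, 30 were tested and 1 was lower at an unadjusted p under 0.05. C3, the central complement component, was 7.26 to 9.55 in vehicle mice (median 8.57) and 6.81 to 8.68 in BDE-47 mice (median 7.41). Its difference was -0.83 (SE 0.38, limma unadjusted p = 0.0333, adjusted p = 0.982), and -0.55 without vehicle replicates 6 and 8 (unadjusted p = 0.138). The difference of Tab2 was -1.87 without vehicle replicates 6 and 8 (limma unadjusted p = 0.00409). Azi2 then differed by 2.15, Tnfrsf11a by -2.19 and Tnfrsf12a by 1.52, and together with C3 their unadjusted limma p lay between 0.0575 and 0.138. In the exact permutation test without these mice, the unadjusted p was 0.0490 for Azi2, 0.0274 for Tnfrsf11a, 0.0163 for Tnfrsf12a and 0.182 for C3, and the adjusted p was 1.00 for each. In 8 of the 30 targets, vehicle replicates 6 and 8 were both above all other mice, against 5.54% of all genes tested. The same held for 2 of 33 adaptors, kinases and ubiquitin regulators and for none of the tested receptors, ligands and other inhibitors and kinase partners. Cyld, named here for being in both lists, is among both the 8 and the 2. The filter leaves out genes seen in few mice, among them genes seen mainly in these mice. With the genes not tested, it held for 4 of 27 receptors, 4 of 15 ligands and 1 of 15 other inhibitors and kinase partners. It then held for 15 of 54 targets and 4 of 45 adaptors, kinases and ubiquitin regulators. The share over all listed genes was not counted, so these counts cannot be set against the 5.54% of the genes tested.

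**Figure D4:**
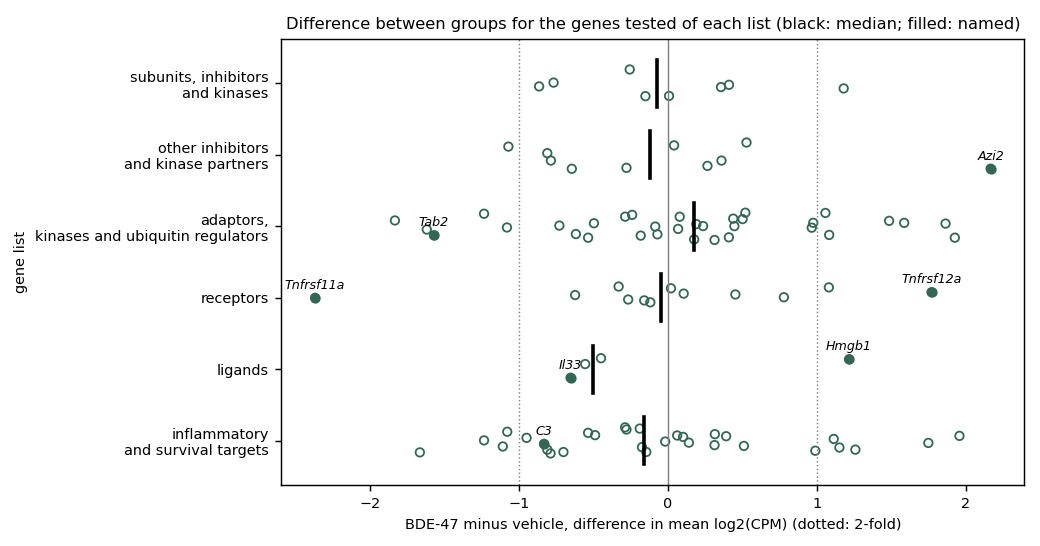
Difference between groups in mean log2(CPM), BDE-47 minus vehicle, for each tested gene of 6 lists, with black bars at the list medians and dotted lines at 2-fold. Filled points are Azi2, Tab2, Tnfrsf11a, Tnfrsf12a, Hmgb1, Il33 and C3. All other points are open, those of the subunits, inhibitors and kinases included. The medians lie between -0.50 (ligands) and 0.18 (adaptors, kinases and ubiquitin regulators).

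Some pathway genes were above the floor in 1 group alone. They are named after their values were seen and have no test. Tab3, a close relative of Tab2, was seen in no vehicle mouse, but 5 of 7 BDE-47 mice exceeded the floor, at up to 5.22. Rnf31, a subunit of the linear ubiquitin ligase, and Tlr5, the receptor of bacterial flagellin, exceeded the floor in 3 of 7 mice with BDE-47 and in no vehicle mouse. Conversely, Tlr1, Tnfrsf9 and Mmp9 were seen in 3 of 8 vehicle mice and in no BDE-47 mouse, and vehicle replicates 6 and 8 were both among the 3 for Tlr1 and Tnfrsf9. Of the 118 pathway genes above the floor in at least 3 mice, 3 were thus seen in BDE-47 mice alone and 3 in vehicle mice alone, against 0.934% and 0.822% of the 12531 genes that met the same limit.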

How the data were processed

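Mammary tissue of 15 mice was compared, 8 vehicle and 7 BDE-47, grouped by the sample labels. RNA libraries were made with QuantSeq 3′ FWD, and the authors mapped reads with STAR 2.5.3a to GRCm38, per the submitters' processing notes, and normalised them to CPM. In the deposited files each value is a log2(CPM), and 0 stands for anything below 1 CPM, as inferred from the numbers themselves. Repeated gene names (110 of 52636 entries in a mouse) were removed. Depth was 10.1 to 19.6 M reads. Whether counting used strand is not given in the sources used here.

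The 9506 genes that reached 1 CPM in 7 or more mice were tested with limma 3.58.1 in R 4.3.3 (empirical Bayes with a trend), with Benjamini-Hochberg adjustment over all of them, by an exact permutation test, two-sided, of the difference in means, and by Fisher's exact test of mice above the floor. Methods that need counts were not used. Xenograft presence, a covariate in the study, is not in the labels per mouse and was not used. The genes and lists were chosen with earlier results of these data known. Of the other pathway genes, those named have an unadjusted limma p under 0.05 or, where a list has none, the largest difference either way. Exceptions are said in the text. Simulated data were used to check the limma fit with known changes, the exact permutation test, and the motif search with planted matches. The simulated levels had no floor, and the other steps were not checked in this way. Python 3.11.15, numpy 2.4.6, scipy 1.17.1, pandas 2.3.3 and matplotlib 3.10.9 did the rest. Alternatives were pseudocounts of 1 and 0.1, other filters and scales, size factors, no trend, a replicate block, floors of 2 and 4 CPM and leaving out mice. The fit that also leaves out BDE-47 replicate 6 was added after seeing the data.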

Additional observations from a re-analysis of the deposited data

Results flagged for a closer look

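Of 20 sets of values (10 genes in 2 groups), 7 held a mouse far from the others of its group by Dixon's criterion. Chance marks about 1 in 20 sets of normally distributed values, a rate that does not apply to sets made mostly of values listed at 0, such as Rel and Tnfaip3. Vehicle replicate 2 was the lowest vehicle mouse in Rela, at 0.018 log2(CPM) with the next mouse at 4.54, and in Ikbkb, listed at 0 with the next mouse at 3.94. Both genes had a positive difference with this mouse and a negative one without it, as given above. Vehicle replicate 4 was the lowest vehicle mouse in Chuk, at 2.64 against 4.08 in the next. BDE-47 replicate 7 was the lowest BDE-47 mouse in Chuk, listed at 0 with the next mouse at 3.22. For Tnfaip3, vehicle replicate 6 was the highest vehicle mouse at 5.79, with 1.81 in the next, and BDE-47 replicate 2 was the highest BDE-47 mouse at 5.58, with all other BDE-47 mice listed at 0. In Rel, BDE-47 replicate 3 was the highest BDE-47 mouse at 0.90, with 0.37 in the next.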

How the results depend on the processing

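No gene of the 10 had an adjusted p under 0.05 under any of the alternatives that could test it (lowest 0.807), and 186 of 214 differences kept their direction. Nfkb1 turned to -0.11 with log2(CPM + 0.1) and -0.024 as the log2 ratio of mean CPM. That ratio also gave 0.31 for Nfkb2, -0.10 for Rela, -0.95 for Relb and -0.11 for Ikbkb, with 0 genes past 2-fold higher. Mice above the floor alone gave 0.20 for Nfkb2, -0.29 for Relb and -0.28 for Ikbkb. In mean rank, Rela differed by -0.54 and Nfkbia by 0.27. Without vehicle replicates 6 and 8, Nfkbia was 0.29, and 1 gene (Relb) had an unadjusted p under 0.05. Leaving out BDE-47 replicate 6 as well gave 0.65 for Nfkb1, 0.39 for Nfkb2, 1.22 for Rela, 0.54 for Nfkbia and 1.03 for Ikbkb, with 3 genes past 2-fold higher and 1 lower. With 1 mouse left out at a time, the ranges were -0.38 to 0.45 for Nfkb1, -0.66 to 0.20 for Nfkb2, -0.32 to 0.66 for Rela, -0.36 to 0.10 for Nfkbia, -0.28 to 0.67 for Ikbkb, -0.999 to 0.041 for Il33 and 0.83 to 1.89 for Relb, and 0 to 1 genes past 2-fold in each direction. Genes past 2-fold lower numbered 2 with log2(CPM + 0.1) and 1 without a filter. The causes of these shifts were not tested.

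Among the other pathway genes, those higher at an unadjusted p under 0.05 (2 as reported) numbered 1 with log2(CPM + 0.1), 4 with no filter, 0 among genes above the floor in at least 12 mice, 4 as the log2 ratio of mean CPM, 1 without vehicle replicates 6 and 8, and 0 to 5 with 1 mouse left out. Those lower (3 as reported) numbered 1 without vehicle replicates 6 and 8, 1 also without BDE-47 replicate 6, and 1 to 4 with 1 mouse left out.

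The groups share replicate numbers, and the labels do not say what the numbers stand for. The r computed for same-numbered mice ran from -0.02 to 0.05 over 7 pairs, with 3 of the 7 best with their own number. It is not the r of the levels as listed, which ran from 0.34 to 0.79 over pairs of mice. These values do not settle whether mice were paired, and the main tests treated them as unpaired. With the replicate block, Nfkbia was 0.084, 1 gene was past 2-fold lower, and 1 other pathway gene was higher at an unadjusted p under 0.05. Rel and Tnfaip3 were left out of the tests by the filter on low values, and at a floor of 10.1 to 19.6 reads most of their values are listed at 0.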
